A study of Mus musculus with 4 samples.

Results

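The expression of 9 genes of sialic acid biology was followed in myeloid cells from mouse liver: 4 enzymes that make and activate sialic acid (Gne, Nans, Cmas and Cmah) and 5 receptors that bind it (Siglec1, Cd33, Siglece, Siglecf and Siglecg). All 9 were found by symbol among the 55487 genes of the count table, and all 9 passed the filter on low counts that left 13496 genes. Cmah was selected on its measured log2 fold change, a large rise in the floxed genotype, and the other 8 were set beside it for their function. Values of Cmah between the genotypes are therefore a description without a test, and tests are given for the other genes only.

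Poly(A) RNA was sequenced from cells gated as CD45+ CD3- CD11c- CD11b+ after digestion of perfused livers and enrichment of immune cells on Percoll. The groups were LysM-Cre IL10R fl/fl, in which the interleukin-10 receptor gene is flanked by loxP sites (2 libraries), and LysM-Cre IL10R wt/wt, in which it is not (2 libraries). Both genotypes carry LysM-Cre, a Cre recombinase driven from the lysozyme 2 locus, which acts in macrophages, monocytes and granulocytes and not in most other cells. The labels give no age, sex or treatment of the mice and do not say whether libraries of the same genotype are from different mice, so the p-values measure the spread between these libraries.

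Sialic acids are acidic sugars that cap the glycans of the cell surface. Gne makes their precursor from UDP-N-acetylglucosamine, Nans condenses it into the sialic acid backbone, and Cmas couples the finished sugar to CMP in the nucleus, the form that sialyltransferases use. Cmah then hydroxylates CMP-N-acetylneuraminic acid to CMP-N-glycolylneuraminic acid, a form that mice make and humans do not, since the human gene is inactive. Siglecs are lectins of immune cells that recognise these sugars. Many of them recruit phosphatases through motifs in their tails and restrain the cell, whereas Siglec1 (sialoadhesin, CD169) has no such motif and serves macrophages in adhesion and capture of sialylated particles.

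Total counts were 17750343 and 17154042 in fl/fl libraries 1 and 2, and 22694136 and 26441014 in wt/wt libraries 1 and 2. Levels are given as CPM, the counts of a gene relative to the TMM-scaled total of its library. On this scale 3 counts, the limit that a count of 0 allows, lie at 0.175 and 0.171 CPM in the fl/fl libraries and at 0.135 and 0.111 CPM in the wt/wt libraries. Il10ra, the ligand-binding receptor chain that was taken as the floxed gene, held 69.3 and 14.8 CPM in the fl/fl libraries against 1111 and 993 CPM in the wt/wt libraries. The gate genes Ptprc and Itgam were at 368 CPM or more in every library, and Cd3e was at 0.0737 CPM or less; Itgax, the gene of CD11c, was nevertheless present, at 24.6 and 47.1 CPM in the fl/fl libraries and 158 and 134 CPM in the wt/wt libraries. The fl/fl libraries stood further apart than the wt/wt libraries, with an SD of log2 differences of 0.814 against 0.631. Counts of Xist, an RNA of female cells, were 4298 in fl/fl 2 and 0 in every other library. Library fl/fl 2 thus held female RNA and fl/fl 1 did not, so these 2 libraries are not from the same mouse. Sex therefore differed within fl/fl and was not balanced between the genotypes. The part of these differences between libraries in the results was not tested. In these bulk samples, fewer cells of a type and less RNA per cell cannot be told apart.

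Cmah (ENSMUSG00000016756; GRCm38 chromosome 13, 24327404 to 24477377, plus strand) has 2 start sites in RefSeq, the first at the start of the gene and the second inside it. A gene count sums the RNA of both, so the counts do not show which start was used. The 250 bases before each start are given here because Cmah is the member with the largest difference between the genotypes. Capitals mark the 50 bases next to the start (RefSeq, GRCm38.p6, plus strand, 5′ to 3′).
Cmah first start, chr13:24327154-24327403: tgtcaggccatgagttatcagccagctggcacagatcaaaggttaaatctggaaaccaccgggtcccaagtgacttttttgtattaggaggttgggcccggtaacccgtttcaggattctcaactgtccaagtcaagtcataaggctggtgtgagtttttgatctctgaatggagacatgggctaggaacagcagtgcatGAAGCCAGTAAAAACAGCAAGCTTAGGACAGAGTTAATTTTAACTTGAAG
Cmah second start, chr13:24414872-24415121: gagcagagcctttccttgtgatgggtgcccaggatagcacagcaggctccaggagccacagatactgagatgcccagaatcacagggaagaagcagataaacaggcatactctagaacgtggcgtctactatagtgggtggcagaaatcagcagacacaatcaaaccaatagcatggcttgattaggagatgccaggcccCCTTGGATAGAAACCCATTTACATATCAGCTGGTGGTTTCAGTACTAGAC
Neither window held, on either strand, a match to AGGAAG (the core bound by PU.1), TTNCNNAA (C/EBP), TGTGGT (RUNX) or the interferon-stimulated response element (GAAA, any 2 bases, GAAA), in which overlapping matches were allowed. Among 32851 windows of the same length in the table, 29.5%, 36.8%, 14% and 2.98% held these motifs in that order. Of the 9 genes, 7 were in the promoter table, the others being Nans and Siglec1.

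Cmah RNA was far higher in the fl/fl libraries than in the wt/wt libraries, where it was scarce. Cmah had 1225 and 450 counts in fl/fl libraries 1 and 2, or 71.3 and 25.7 CPM, against 37 and 76 counts in wt/wt libraries 1 and 2, or 1.66 and 2.80 CPM. Both fl/fl libraries lay above both wt/wt libraries, and fl/fl 1 held 2.78 times as much as fl/fl 2. The mean was 48.5 ± 32.3 CPM in the fl/fl libraries and 2.23 ± 0.805 CPM in the wt/wt libraries (SD, n = 2 each), a ratio of means of 21.7. The log2 fold change, fl/fl over wt/wt, was 4.43 ± 0.55 (SE) in the model fitted over all genes, 3.47 with library fl/fl 1 left out and 4.99 with fl/fl 2 left out.

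The substrate of Cmah is made by Cmas, and none of the 3 upstream enzymes among the 9 genes passed the test. Nanp, which acts between Nans and Cmas, was at 0 in every library and was not tested. Cmas held 118 and 100 CPM in the fl/fl libraries against 70.4 and 78.0 CPM in the wt/wt libraries, with both fl/fl libraries above (log2 fold change 0.56 ± 0.17, SE; adjusted p = 0.106 in edgeR's quasi-likelihood F test). Nans held 60.8 and 54.4 CPM in the fl/fl libraries and 50.7 and 52.7 CPM in wt/wt (log2 fold change 0.16 ± 0.16, SE; adjusted p = 0.639, edgeR). In Nans, 29.6% of the exonic length is shared with Trim14 on the opposite strand, and the strand setting of the counting is not given in the sources used here, so reads of the 2 genes may not be separated there. Trim14 held 8.15 and 12.3 CPM in the fl/fl libraries and 20.7 and 14.0 CPM in the wt/wt libraries.

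Gne, the entry enzyme of the pathway, held 10.8 and 8.10 CPM in the fl/fl libraries and 8.40 and 9.17 CPM in the wt/wt libraries, and its groups overlapped (log2 fold change 0.10 ± 0.28, SE; adjusted p = 0.882, edgeR). Per exonic kilobase, the ratio of Cmah to Cmas within a library was 0.267 and 0.114 in the fl/fl libraries, against 0.0104 and 0.0159 in the wt/wt libraries. This ratio does not depend on library scaling. Cmah was selected for its rise and Cmas differed far less, so the gap between the groups in this ratio is no separate evidence.

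**Figure D1:**
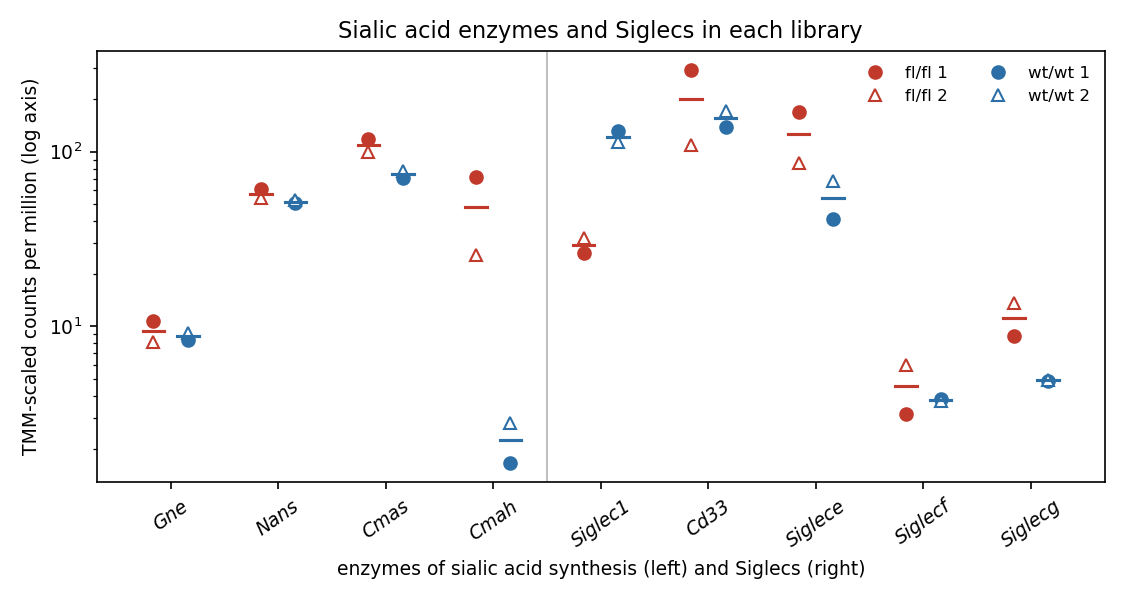
Level of each gene in every library, in TMM-scaled CPM on a log axis, with enzymes left of the grey line and Siglecs right of it; circles are libraries 1, open triangles libraries 2, red fl/fl, blue wt/wt, and short bars the group means. Cmah stands at 71.3 and 25.7 CPM in the fl/fl libraries against 1.66 and 2.80 in the wt/wt libraries, Siglec1 lies lower in both fl/fl libraries, and Cd33, Siglecf and Gne overlap between the groups.

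Siglec1 was the receptor with the clearest difference, and it was lower in the fl/fl libraries. Siglec1 (ENSMUSG00000027322; chromosome 2, 131069220 to 131086765, minus strand) held 26.3 and 32.0 CPM in the fl/fl libraries against 131 and 114 CPM in the wt/wt libraries. The libraries of each group lay close together and the groups were far apart, at means of 29.1 ± 3.99 CPM in the fl/fl libraries and 122 ± 12.2 CPM in the wt/wt libraries (SD, n = 2 each), a level 4.19-fold lower in the fl/fl libraries. Siglec1 fell by 2.07 on the log2 scale (SE 0.18; adjusted p = 0.00879 in edgeR's quasi-likelihood F test, lower in 2 of 2 fl/fl libraries). The log2 fold change was between −2.21 and −1.97 when single libraries were left out. In edgeR the call was lost without wt/wt 1 or wt/wt 2 (adjusted p = 0.111 and 0.052), as was every call of this test over all genes, while DESeq2 on the same 3 libraries gave adjusted p = 1.94e-05 and 7.54e-07. Over 15 alternatives the adjusted p ran from 4.64e-20 to 0.111.

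Among the other Siglecs, none passed the test. Siglece, an inhibitory Siglec of mouse neutrophils, monocytes and macrophages, held 169 and 86.2 CPM in the fl/fl libraries against 41.3 and 67.7 CPM in the wt/wt libraries. Both fl/fl libraries lay above both wt/wt libraries, and fl/fl 1 held 1.96 times the level of fl/fl 2. The log2 fold change was 1.22 ± 0.36 (SE), with an adjusted p = 0.103 in edgeR. DESeq2 called Siglece (adjusted p = 0.0127), and its difference was 0.62 on the log2 scale with fl/fl 1 left out and 1.63 with fl/fl 2 left out, where it passed in edgeR (adjusted p = 0.00522). Over all alternatives the adjusted p of Siglece ran from 1.81e-07 to 0.546.

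Siglecg, an inhibitory receptor known from B cells that also binds the sialylated protein CD24, held 8.85 and 13.6 CPM in the fl/fl libraries against 4.90 and 4.94 CPM in the wt/wt libraries. Both fl/fl libraries lay above, with fl/fl 2 the higher (log2 fold change 1.19 ± 0.32, SE; adjusted p = 0.0843, edgeR). DESeq2 called it (adjusted p = 0.0286), and it passed without fl/fl 1 (adjusted p = 0.0218), in a range of 0.012 to 0.572 over the alternatives. B cell markers were scarce in all libraries: 2 of 8 were tested, Cd79b stood at 4.37 and 8.67 CPM in the fl/fl libraries and 6.29 and 8.51 CPM in the wt/wt libraries, and Cd79a at 1.05 and 1.37 CPM in the fl/fl libraries and 0 and 0.774 CPM in the wt/wt libraries. The summed level of the B cell list was 5.65 and 11.2 CPM in the fl/fl libraries and 6.29 and 9.65 CPM in the wt/wt libraries. The part of B cell RNA in Siglecg was not tested.

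Cd33, a Siglec of myeloid cells, held 292 and 109.9 CPM in the fl/fl libraries and 139 and 171 CPM in the wt/wt libraries. The fl/fl libraries were the highest and the lowest of the 4, so the groups overlapped (log2 fold change 0.37 ± 0.41, SE; adjusted p = 0.664, edgeR). The value was −0.54 with fl/fl 1 left out and 0.92 with fl/fl 2 left out, where it passed (adjusted p = 0.0233), in a range of 0.0233 to 1.0 over the alternatives. Its direction thus rested on which fl/fl library was kept.

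Siglecf, known from eosinophils and alveolar macrophages, was near the low end in every library, with 54 and 105 counts in the fl/fl libraries and 86 and 102 counts in the wt/wt libraries. These counts gave 3.14 and 5.99 CPM in the fl/fl libraries and 3.86 and 3.76 CPM in the wt/wt libraries, and the groups overlapped (log2 fold change 0.26 ± 0.43, SE; adjusted p = 0.79, edgeR). The summed level of 9 eosinophil markers was 46.5 and 76.6 CPM in the fl/fl libraries against 26.8 and 48.1 CPM in the wt/wt libraries, and Ear2 made up most of it in each library. Prg3 was at 0 in all libraries, and Epx had 2 counts in fl/fl 1 and 0 elsewhere. Prg2 had 17 and 47 counts in the fl/fl libraries and 0 in the wt/wt libraries. It passed the filter on low counts through the fl/fl libraries alone, so no test is given for it. The eotaxin receptor gene Ccr3 held 0.757 and 7.76 CPM in the fl/fl libraries and 1.35 and 1.88 CPM in the wt/wt libraries, so that fl/fl 2, the library with the most Siglecf, also had the most Ccr3; the part of eosinophil RNA in Siglecf was not tested.

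Of the 8 genes besides Cmah, 1 fell and 7 did not pass, beside 5.85% of all 13496 tested genes that passed. Their libraries did not overlap in 5 cases, with fl/fl above in 4 (Siglece, Siglecg, Cmas and Nans) and below in 1, whereas 54.4% of all tested genes were separated, 28.1% with fl/fl above and 26.3% with fl/fl below. The share of separated genes is therefore near that of all genes. The median log2 fold change of the 8 genes was 0.32, against 0.02 over all tested genes. The design of 2 against 2 cannot reach an exact permutation p below 0.333 for a single gene.

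Levels can be compared between genes only per length, in CPM per exonic kilobase. In fl/fl the order of the means was Siglece (68.9), Cd33 (25.9), Cmas (23.1), Nans (12.6), Cmah (4.55), Siglec1 (4.08), Siglecg (2.34), Siglecf (1.64) and Gne (1.48). In wt/wt it was Siglece (29.5), Cd33 (20.0), Siglec1 (17.1), Cmas (15.7), Nans (11.3), Gne (1.38), Siglecf (1.37), Siglecg (1.02) and Cmah (0.209). Among neighbours in the fl/fl order, the libraries of Cd33 and Cmas, Cmah and Siglec1, Siglecg and Siglecf, and Siglecf and Gne overlapped. Cmah and Siglecg, which are not neighbours, overlapped in fl/fl too. In wt/wt, Cd33 and Siglec1, Siglec1 and Cmas, and Gne and Siglecf overlapped. By the means, Cmah was thus in the middle of the order in fl/fl and the last of the 9 in wt/wt. Siglec1 stood at rank 6 of the means in fl/fl and at rank 3 in wt/wt. Single libraries differed from this order. In fl/fl 2, Cmah (2.41) lay below Siglec1 (4.47) and Siglecg (2.84). Siglec1 lay above Cd33 in wt/wt 1 (18.3 against 17.9) and below Cmas in wt/wt 2 (15.9 against 16.5).

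Siglece and Cd33 together made up most of the per-kilobase level of the 5 Siglecs in every library. Siglec1 was 2.72% and 6.37% of that sum in the fl/fl libraries, against 30.0% and 20.7% in the wt/wt libraries. Siglece was 67.3% and 66.4% in the fl/fl libraries and 36.7% and 47.6% in the wt/wt libraries. Cd33 was 27.8% and 20.1% in the fl/fl libraries and 29.4% and 28.6% in the wt/wt libraries. Thus the share of Siglece was higher and that of Siglec1 lower in both fl/fl libraries than in both wt/wt libraries. The share of Cd33 was slightly lower in fl/fl 1 (27.8%) and further below in fl/fl 2 (20.1%).

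**Figure D2:**
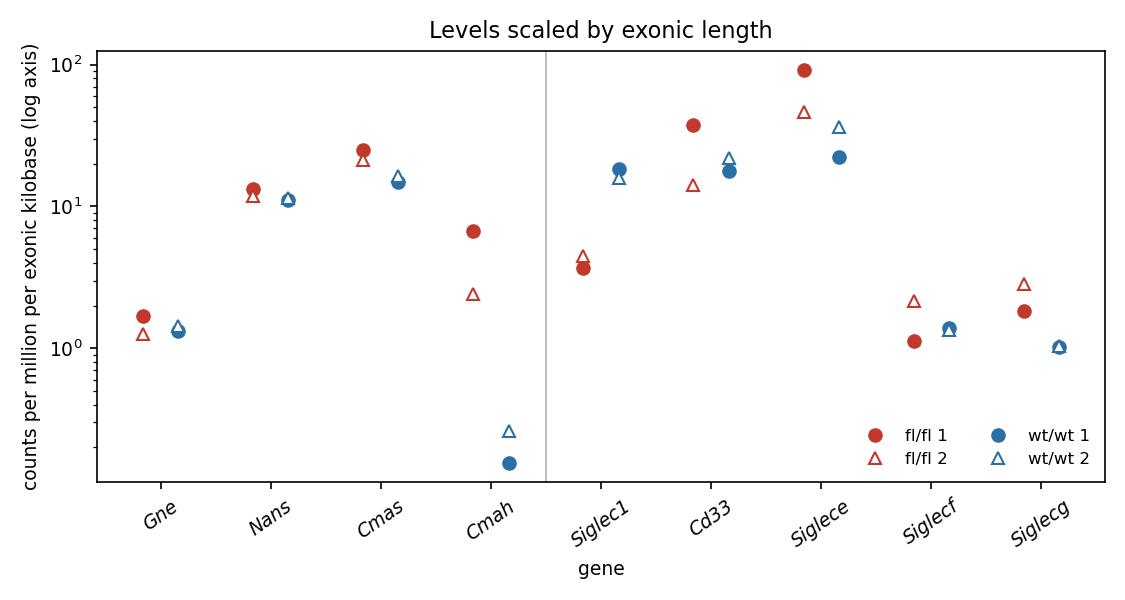
CPM per exonic kilobase on a log axis for each gene and library, with enzymes left of the grey line and Siglecs right of it; red is fl/fl and blue wt/wt, circles libraries 1 and open triangles libraries 2. Cmah is the lowest gene in wt/wt (mean 0.209) and stands at a mean of 4.55 in the fl/fl libraries, while Siglec1 stands at 4.08 in the fl/fl libraries against 17.1 in the wt/wt libraries.

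Cmah was high in the libraries that also held much granulocyte precursor RNA. All 10 precursor genes had both fl/fl libraries above both wt/wt libraries, against 28.1% of all tested genes. Of the 10, 8 rose and 2 did not pass, against 2.69% of all tested genes that rose. The median log2 fold change of the 10 genes was 3.76. Their summed level was 2007 and 655 CPM in the fl/fl libraries, against 83.5 and 76.4 CPM in the wt/wt libraries. Prtn3 and Serpinb1a, a protease and a protease inhibitor of granulocytes, had the highest mean CPM, a scale not adjusted for length. Prtn3 held 687 and 249.5 CPM in the fl/fl libraries against 28.0 and 23.4 CPM in the wt/wt libraries. In the precursor sum fl/fl 1 held 3.06 times the level of fl/fl 2, next to 2.78 times for Cmah. An excess in fl/fl 1 was not particular to precursor genes. The same ratio was 2.23 for the sum of the mature neutrophil genes, 2.29 for that of the cell cycle genes and 2.66 for Cd33.

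Of 12 mature neutrophil genes, 10 rose and 2 did not pass, S100a9 and S100a8 having the highest mean CPM. Their summed level was 40070 and 17959 CPM in the fl/fl libraries and 3303 and 4129 CPM in the wt/wt libraries. Of 12 cell cycle genes, 7 rose and 5 did not pass, with summed levels of 1196 and 522 CPM in the fl/fl libraries and 354 and 254 CPM in the wt/wt libraries. Beside the counts of both lists, 2.69% of all tested genes rose. With fl/fl 1 left out, the precursor median log2 fold change was 2.86, and with fl/fl 2 left out it was 4.35. The part of granulocyte precursors, neutrophils or dividing cells in the level of Cmah, Siglece or Cd33 was not tested.

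The 5 tested genes whose profile over the 4 libraries was nearest to that of Cmah were Ticrr, a regulator of the start of DNA replication, Kcnk12, a potassium channel gene, Lrg1, a secreted glycoprotein of neutrophil granules, Gm11714 and Wfdc21. Likeness was the Euclidean distance between log2 CPM values centred on each gene's mean, and these genes lay at 0.257, 0.347, 0.416, 0.461 and 0.511. Lrg1 held 896 and 269 CPM in the fl/fl libraries against 20.2 and 44.6 CPM in the wt/wt libraries. Its gap between the groups and its excess in fl/fl 1 are what a choice by likeness to Cmah favours. Kcnk12 and Gm11714 were low, at no more than 4.72 CPM in any library.

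Siglec1 was lower in the libraries that also had lower interferon-stimulated genes, among which Siglec1 is itself known to be counted. Of 12 type I interferon genes, 7 fell and 5 did not pass, against 3.16% of all tested genes that fell. In 11 of the 12, both fl/fl libraries lay below both wt/wt libraries, against 26.3% of all tested genes. The median log2 fold change of the 12 genes was −1.19. Their summed level was 1096 and 1337 CPM in the fl/fl libraries against 2931 and 2296 CPM in the wt/wt libraries. Rsad2, the antiviral protein viperin, held 77.2 and 92.1 CPM in the fl/fl libraries against 423 and 326 CPM in the wt/wt libraries and lay second nearest to Siglec1 of all tested genes, at a distance of 0.141. Irf7 and Oasl2, which had the highest CPM averaged over the groups, held 268 and 358 CPM and 263 and 264 CPM in the fl/fl libraries against 514 and 446 CPM and 327 and 285 CPM in the wt/wt libraries, and neither passed (adjusted p = 0.126 and 0.487, edgeR). Without fl/fl 1, 8 interferon genes fell, and without fl/fl 2, 9 fell.

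The other genes nearest to Siglec1 were Trim47 (0.0987), Peak1 (0.217), Abca1, the cholesterol exporter (0.221), and Nol4l (0.222). Abca1 held 10.5 and 11.5 CPM in the fl/fl libraries and 58.4 and 44.4 CPM in the wt/wt libraries. In each of these genes, as in Siglec1, fl/fl 2 lay above fl/fl 1, which their choice by likeness to Siglec1 favours. Cmah was lower in fl/fl 2.

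**Figure D3:**
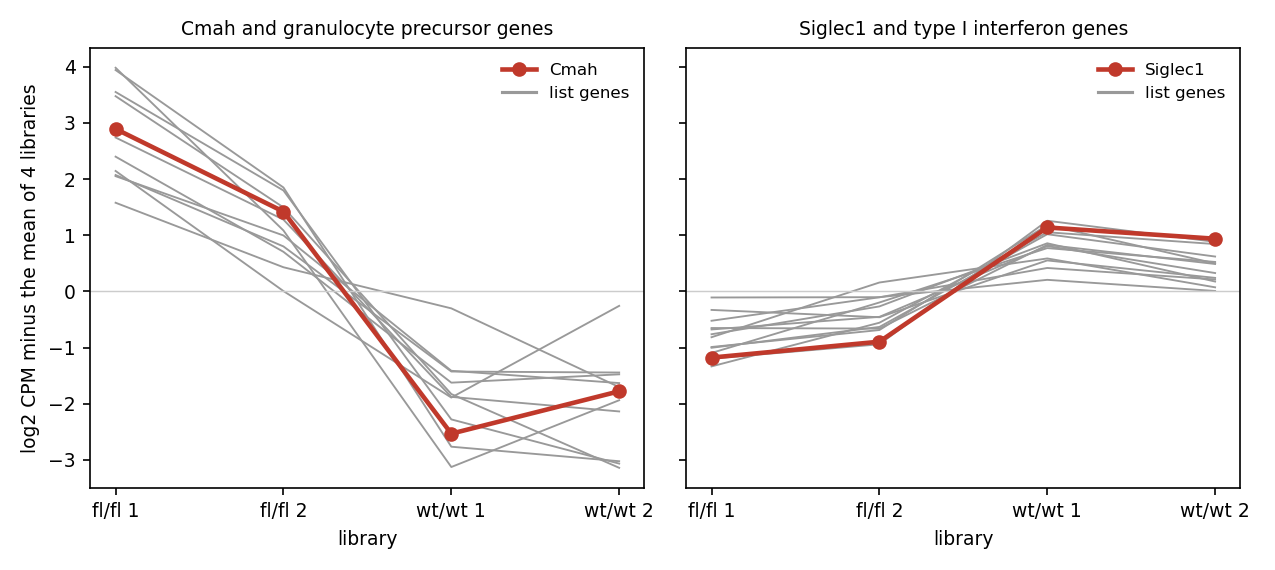
Log2 CPM of each gene minus its mean over the 4 libraries, with the fl/fl libraries left of the wt/wt libraries; the left panel shows Cmah (red) with 10 granulocyte precursor genes (grey), the right panel Siglec1 (red) with 12 type I interferon genes (grey). Cmah and the precursor genes are higher in fl/fl library 1 than in library 2 and lowest in the wt/wt libraries, and Siglec1 and most interferon genes are low in both fl/fl libraries.

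Siglec1 is also a marker of tissue macrophages. Of 11 genes of Kupffer cells, the resident macrophages of the liver, 6 were tested, 3 fell and 3 did not pass, and the summed level was 369.8 and 262 CPM in the fl/fl libraries against 919.9 and 934 CPM in the wt/wt libraries. The 3 that fell were the complement genes C1qa, C1qb and C1qc, which other macrophages express too, with C1qb at 70.5 and 24.4 CPM in the fl/fl libraries against 342 and 332 CPM in the wt/wt libraries. The defining Kupffer cell genes Clec4f, Vsig4 and Timd4 were at 0.873 CPM or less in every library and were not tested. Of the 6 tested genes, 1 had both fl/fl libraries above, 4 had both below and 1 overlapped. Of all tested genes, 28.1% lay above and 26.3% below, and 3.16% fell. Slc40a1, the iron exporter, held 72.3 and 54.9 CPM in the fl/fl libraries against 8.27 and 34.1 CPM in the wt/wt libraries (log2 fold change 1.58, adjusted p = 0.164, edgeR). Cd5l overlapped, at a log2 fold change of 1.00 (adjusted p = 0.598, edgeR). Adgre1 held 150.4 and 156 CPM in the fl/fl libraries against 178 and 183 CPM in the wt/wt libraries (adjusted p = 0.406, edgeR). The median of the list was −1.53 over the 6 tested genes and 0.98 over all 11 with no filter on low counts. C1qa and C1qb were lower in fl/fl 2 than in fl/fl 1, whereas Siglec1 was not. The part of macrophage number in the level of Siglec1 was not tested.

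The 8 genes and others of the pathway made up 6 functional lists of 70 genes without Cmah, of which 57 passed the filter and 8 were at 0 in all libraries. Of the 57, 2 rose, 6 fell and 49 did not pass, so that 14.0% were called, against 5.85% of all tested genes, 2.69% higher and 3.16% lower. The median log2 fold change was 0.08. The 8 called genes were Siglec1, 2 sialyltransferases, 2 signalling partners and 3 genes of selectin ligands. The lists were chosen with earlier results of these data known, and nothing particular to them follows from these shares.

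In sialic acid synthesis and transport, 10 genes besides Cmah were tested and none passed in edgeR, in which 1, Cmas, had an unadjusted p under 0.05. Renbp, an epimerase of N-acetylglucosamine, had a log2 fold change of −0.32, Nagk, its salvage kinase, 0.29, and Gfpt1, the entry enzyme of the hexosamine pathway, 0.36. Slc35a1, which carries CMP-sialic acid into the Golgi, held 16.0 and 19.7 CPM in the fl/fl libraries and 14.4 and 19.7 CPM in the wt/wt libraries. Nanp, the phosphatase between Nans and Cmas, was listed at 0 in every library; nearly its whole span lies within Ninl on the same strand, and how the counting treated reads in both genes is not given in the sources used here.

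Of the sialyltransferases, which place sialic acid on glycans, 12 of 20 were tested, 1 rose and 1 fell. Among all tested genes, 2.69% rose and 3.16% fell. St3gal4, which caps galactose and helps to build selectin ligands on mouse neutrophils, held 177 and 199 CPM in the fl/fl libraries against 95.3 and 112 CPM in wt/wt (log2 fold change 0.86 ± 0.17, SE; adjusted p = 0.0357, edgeR). St6galnac4, which extends sialylated O-glycans, held 31.4 and 28.4 CPM in the fl/fl libraries against 60.2 and 68.2 CPM in wt/wt (log2 fold change −1.10 ± 0.17, SE; adjusted p = 0.0212, edgeR). In both genes the libraries of a group lay close together; 14.1% of the exonic length of St3gal4 is shared with 4930581F22Rik on the opposite strand. St8sia1, the ganglioside GD3 synthase, held 0.815 and 1.26 CPM in the fl/fl libraries against 4.63 and 2.91 CPM in wt/wt (log2 fold change −1.85, adjusted p = 0.0926, edgeR), St3gal2 was at 0.74, St8sia4, a polysialyltransferase, at 0.56, and St8sia6 at −1.05, none of which passed.

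Enzymes that remove or modify sialic acid showed no call in edgeR among 5 tested of 7, and none of the 5 had an unadjusted p under 0.05. Neu1, the lysosomal sialidase, held 144 and 148 CPM in the fl/fl libraries and 123 and 125 CPM in the wt/wt libraries, and Ctsa, the protease that protects it, 578 and 756 CPM in the fl/fl libraries and 671 and 769 CPM in the wt/wt libraries. Siae, which removes acetyl groups from sialic acid, had a log2 fold change of 0.70 and the plasma membrane sialidase Neu3 one of −1.46, with only 5 and 9 counts of Neu3 in the fl/fl libraries and 20 and 36 counts in the wt/wt libraries. Neu2 and Neu4 were at 0 in all libraries.

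Among 10 partners of Siglec signalling, 2 fell and 8 did not pass, beside 3.16% of all tested genes that fell. Src, a kinase of the family that phosphorylates Siglec tails, had 22 and 4 counts in the fl/fl libraries against 474 and 548 counts in the wt/wt libraries, or 1.28 and 0.228 CPM in fl/fl against 21.3 and 20.2 CPM in wt/wt. Src fell by 4.77 on the log2 scale (SE 0.60; adjusted p = 0.0141, edgeR), and its value was −6.51 without fl/fl 1, which leaves the library with 4 counts, and −4.00 without fl/fl 2. Inpp5d, the inositol phosphatase SHIP1, held 258 and 235 CPM in the fl/fl libraries against 464 and 421 CPM in wt/wt (log2 fold change −0.85 ± 0.16, SE; adjusted p = 0.0339, edgeR).

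The kinase Fgr and the phosphatase Ptpn6 had values above 0 that did not pass. Fgr held 562 and 635 CPM in the fl/fl libraries and 438 and 484 CPM in wt/wt (log2 fold change 0.38, adjusted p = 0.244, edgeR). Ptpn6, the phosphatase SHP-1 that inhibitory Siglecs recruit, held 555 and 574 CPM in the fl/fl libraries and 436 and 459 CPM in wt/wt (log2 fold change 0.34, adjusted p = 0.267). The adaptor Hcst was at 0.59 (adjusted p = 0.170), and Tyrobp, the adaptor DAP12, held 841 and 898 CPM in the fl/fl libraries and 822 and 712 CPM in the wt/wt libraries.

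Selectin ligands are glycans that end in sialic acid and let leukocytes roll on endothelium. Of 10 genes of this list 1 rose, 2 fell and 7 did not pass, beside 2.69% higher and 3.16% lower among all tested genes. Gcnt1, the branching enzyme of O-glycans on which these ligands are built, held 54.3 and 36.8 CPM in the fl/fl libraries against 106 and 115 CPM in wt/wt (log2 fold change −1.28 ± 0.22, SE; adjusted p = 0.0252, edgeR). B4galt1, a galactosyltransferase, held 133 and 105 CPM in the fl/fl libraries against 210 and 239 CPM in wt/wt (log2 fold change −0.92 ± 0.18, SE; adjusted p = 0.0381, edgeR), and no longer passed without fl/fl 2 (adjusted p = 0.0572).

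Spn, the gene of the heavily sialylated protein CD43, was at 0.76 (adjusted p = 0.0884, edgeR). The fucosyltransferase gene Fut4 was at −0.56 and Selplg, the P-selectin ligand, at 0.41, and neither passed. Cd24a, whose protein is a ligand of Siglec-G, held 271 and 111 CPM in the fl/fl libraries and 99.2 and 109 CPM in wt/wt (log2 fold change 0.88, adjusted p = 0.235), with fl/fl 1 alone standing apart. The summed level of 8 classical monocyte genes was 16696 and 10141 CPM in the fl/fl libraries and 12074 and 9721 CPM in the wt/wt libraries. Of these genes 1 rose, 1 fell (Fn1) and 6 did not pass, beside 2.69% higher and 3.16% lower among all tested genes. Chil3 and Fn1 were highest in CPM averaged over the groups.

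**Figure D4:**
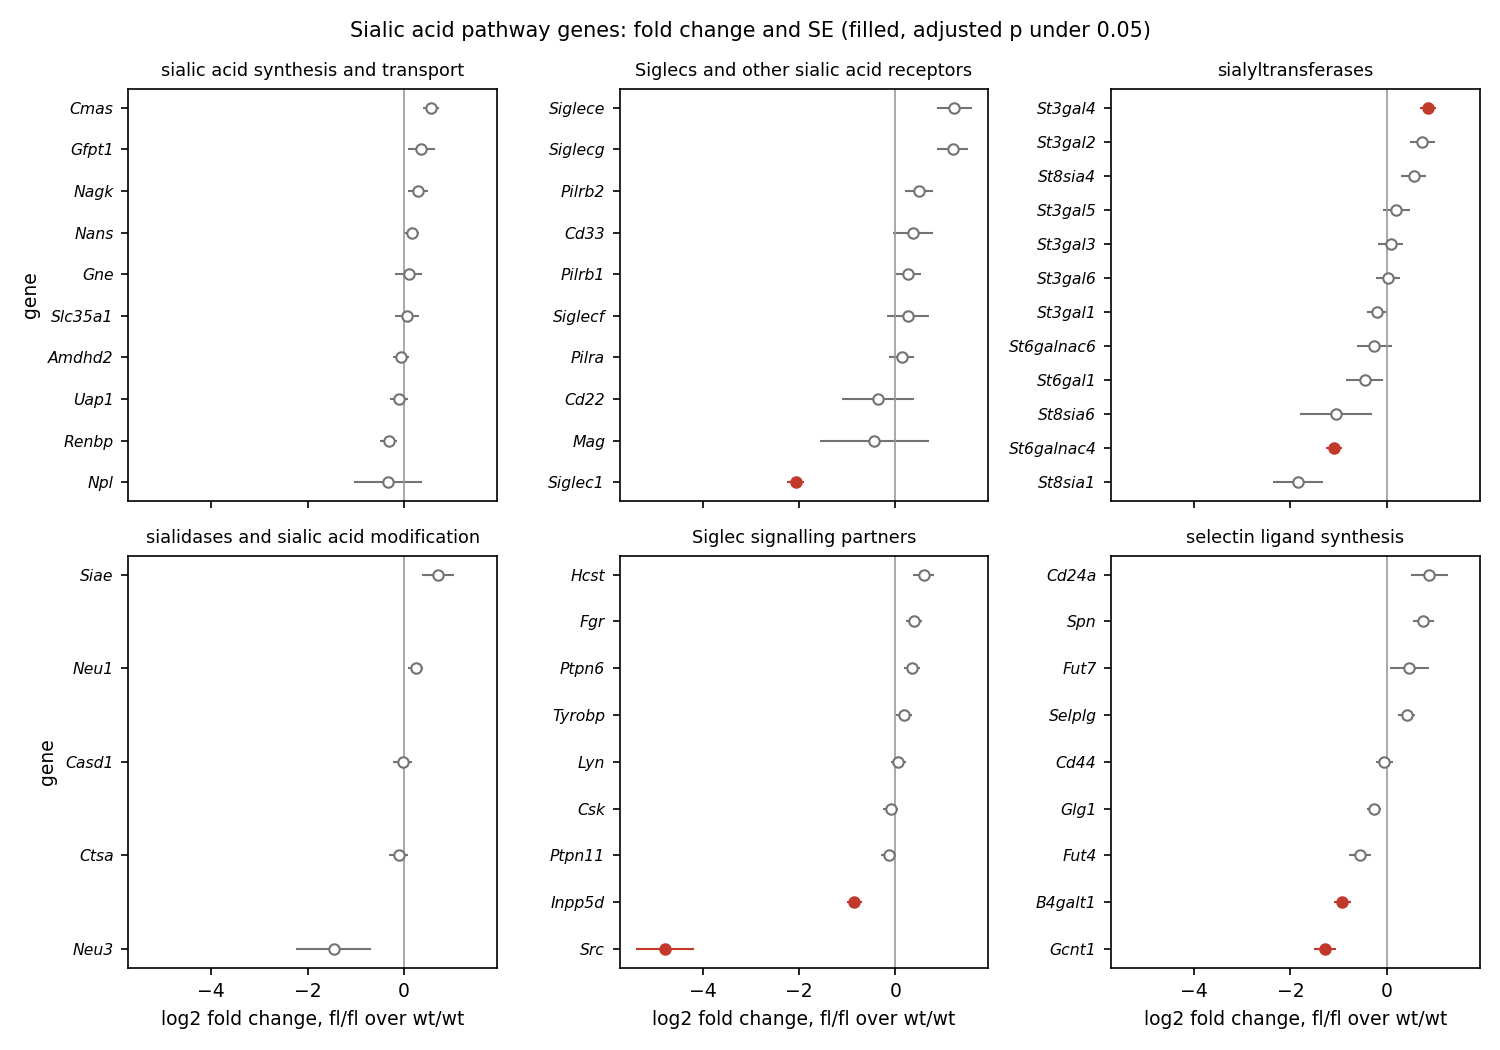
Log2 fold change, fl/fl over wt/wt, with SE, for tested genes of the 6 functional lists without Cmah; filled red points have an adjusted p under 0.05 in edgeR. Among the genes drawn, 1 filled point lies right of 0 (St3gal4) and 6 left of it (Siglec1, St6galnac4, Src, Inpp5d, Gcnt1 and B4galt1).

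The remaining receptors of sialic acid were low or did not pass. Of 12 Siglecs and related receptors, 10 were tested, Siglec1 fell and 9 did not pass, beside 3.16% of all tested genes that fell. Cd22, the B cell Siglec, was at 1.07 CPM or less and Mag, the myelin Siglec, at 2.47 CPM or less in every library. Siglech, known from plasmacytoid dendritic cells, had 0 counts in every library, and Siglec15 had 5 counts in wt/wt 2 and 0 elsewhere. The paired receptors Pilrb1 and Pilrb2, near-identical copies whose reads the counting may have split, were at log2 fold changes of 0.27 and 0.49.

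Markers of other cells were limited in the same libraries. Of 8 plasmacytoid dendritic cell markers 2 were tested and neither passed, and nearly all of their sum was Bst2 and Tcf4, which other cells express. Of 8 T and NK cell genes, 3 were tested and 2 rose, beside 2.69% of all tested genes. These were Nkg7 and Gzma. The summed level, mostly these 2 genes, was 30.1 and 21.9 CPM in the fl/fl libraries against 3.77 and 3.54 CPM in the wt/wt libraries. The other tested gene, Klrb1c, overlapped between the groups (log2 fold change 0.26, adjusted p = 0.899, edgeR). Ncr1, which was not tested, was lower in fl/fl, at 0.0582 and 0.228 CPM against 0.809 and 0.295 CPM in wt/wt. None of 7 hepatocyte genes passed, and their summed level, mostly Trf and Alb, was 217 and 408 CPM in the fl/fl libraries and 273 and 386 CPM in the wt/wt libraries.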

How the data were processed

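Poly(A) RNA of sorted liver myeloid cells was sequenced in 4 libraries, 2 per genotype. The authors deposited whole-number read counts per gene, not normalized. FastQC 0.11.5, Trimmomatic 0.33, STAR 2.5.0 and GRCm38 are named, per the submitters' processing notes; for the counting tool, annotation and strand setting, nothing is stated (not given in the sources used here). The table holds 55487 genes, of which 260 without a symbol stayed in library sizes and tests.

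Counts were tested with the edgeR 4.0.16 quasi-likelihood F test in R 4.3.3 (filterByExpr with a minimum count of 10, TMM scaling, Benjamini-Hochberg adjustment over 13496 genes, threshold 0.05). The SE of a log2 fold change is its size divided by the root of F. The code was tested on simulated data. CPM values are TMM-scaled. Exonic lengths, coordinates and opposite-strand overlaps come from GENCODE M21 (GRCm38), promoters from RefSeq (GRCm38.p6). Total counts of 17154042 to 26441014 and a biological coefficient of variation of 25.5% set the precision; floors cover counting error only.

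Named genes were the 9 members, Il10ra, called genes of each functional list and up to 4 more by smallest p, the 2 genes with the highest mean CPM and absent defining genes of each marker list, and the 5 genes nearest to Cmah and to Siglec1. A few genes that the rule names are counted in their lists but not reported here. Genes of a list given outside this rule were chosen after their values were seen. The members and lists were chosen with earlier results of these data known. Alternatives were other scalings, filters and prior counts, limma 3.58.1 and DESeq2 1.42.0, the replicate number as a block, and each library left out. Replicate libraries of a group differed beyond sampling noise (chi-square per degree of freedom 66.3 in fl/fl and 35.8 in wt/wt).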

Additional observations from a re-analysis of the deposited data

How the results depend on the processing

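Of all tested genes 790 passed, against 2088 with no filter, 1618 with DESeq2 and 1215 with the replicate number as a block; with 1 library left out the count ran from 0 to 1477. Leaving out fl/fl 1 gave 977 calls and leaving out fl/fl 2 gave 1477. Leaving out wt/wt 1, or leaving out wt/wt 2, gave 0 calls in edgeR, where 1576 and 2333 genes had an unadjusted p under 0.05 and DESeq2 called 496 and 784, an alternative chosen after seeing the data. Of the 57 sialic acid and Siglec genes without Cmah, 8 passed, against 14 with no filter, 12 with DESeq2, 9 with the block, 0 to 10 with a library left out (0 in edgeR without 1 of the wt/wt libraries, with 10 and 15 at an unadjusted p under 0.05), and 5 and 7 with DESeq2 without wt/wt 1 and wt/wt 2. In these fits the lone library takes its spread from the other group.

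The log2 fold change of Cmah was 3.47 to 4.99 with a library left out, the lowest without fl/fl 1. With a library left out, Gne ranged from −0.16 (fl/fl 1 removed; −0.01 with wt/wt 1 removed) to 0.30, Siglecf from −0.27 (fl/fl 2 removed) to 0.62 and Cd33 from −0.54 (fl/fl 1 removed) to 0.92. Siglece and Siglecg also passed with no filter (adjusted p = 1.81e-07 and 0.012). St3gal4 and B4galt1 no longer passed in DESeq2 without either wt/wt library, nor did St6galnac4 without wt/wt 2 and Inpp5d without wt/wt 1. The causes were not tested. The correlation of same-numbered deviations was 0.0215 over genes. With a single pair in each group, this cannot show whether same-numbered libraries share a litter, batch or day. Under the block Spn passed (adjusted p = 0.0408, edgeR), as did, upward, 3 classical monocyte genes in place of 1 and 11 mature neutrophil genes in place of 10. Upward calls also came to 1 Kupffer cell gene in place of 0 and 10 cell cycle genes in place of 7. Downward, 8 interferon genes passed in place of 7. The split of higher against lower calls was 363 to 427 with TMM, 341 to 431 with RLE size factors, 255 to 410 with limma-voom, 355 to 622 without fl/fl 1 and 811 to 666 without fl/fl 2, and no scaling moved the median of all genes by over 0.1. At 3 counts the floor is 0.111 to 0.175 CPM, which limits genes with few counts.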
